A study of Mus musculus with 6 samples.

Results

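The 37 genes described here encode cathepsins and related proteases, lysosomal membrane proteins, lysosomal hydrolases and their cofactors, subunits of the proton pump, and the transcription factors of the TFEB family. They were taken by symbol from a table of 33300 features, and each symbol matched a single feature. The table holds polyadenylated RNA of CD4 T cells from 3 control mice, labelled wild type, and 3 SLE1.2.3 mice, all of them female and matched for age. The naive cells of both groups were stimulated on plates coated with antibodies to CD3 and CD28 for 5 days. The medium held 1 ng/mL TGF-β1, 50 ng/mL IL-6, 10 ng/mL IL-1β and 10 ng/mL IL-23, with antibodies to IL-4 and interferon-γ at 10 µg/mL each, a mixture that drives cells towards the Th17 state. The name SLE1.2.3 stands for a congenic line prone to lupus, which carries susceptibility intervals on chromosomes 1, 4 and 7. The intervals are in every cell of the animal, so a difference need not arise in the T cell itself. Neither the control strain nor the age of the mice is given in these sources. Of the 37 genes, Atp6v1h lies on chromosome 1, Ctsc, Ctsd and Tpp1 lie on chromosome 7, and 0 lie on chromosome 4.

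Lysosomes are acidic organelles that break down proteins, lipids, glycans and whole organelles delivered by endocytosis and autophagy. A proton pump of many subunits keeps their lumen acidic, and the cathepsins and glycosidases work at that acidity. TFEB, TFE3 and MITF are related factors that bind E-box sequences in the promoters of lysosomal genes when nutrient signalling at the lysosome is low. In T cells, lysosomes and the related secretory granules take part in receptor turnover, in cytolysis and in the supply of nutrients.

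The hexamer CACGTG, the core of the E-box that the TFEB family binds, was searched in RefSeq promoters (GRCm38.p6, the assembly called mm10) that run from 250 bases before to 50 bases after a gene's start. The hexamer reads the same on both strands. Of the 37 genes, 31 had a promoter in the table (all but Asah1, Atp6v1h, Ctsb, Ctsh, Ctsw and Npc1), and 11 of these 31 (35.5%) held the hexamer, against 8.09% of all genes with a promoter and 12.2% of genes whose mean reached 1 FPKM. Its 8-base extension TCACGTGA, which contains the hexamer, was in 6 of the 31 (19.4%), against 1.12% of all genes and 2.48% of those with a mean of at least 1 FPKM. Of 116 other genes of the pathway, from the lists described further on, 28 (24.1%) held the hexamer and 10 (8.62%) the extension. A longer form, the extension with a further G before it and C after it, was also searched. It was in 0 of the 31 genes and in 3 of the 116 (2.59%). The shares were 0.37% of all genes and 0.925% of those with a mean of at least 1 FPKM. At such low shares, 0 of 31 cannot tell these genes from others. A match describes the letters only and says nothing of binding. The stretches below, from 7 of the 11 genes, show the hexamer in capitals, among them all 4 that passed the test described further on. They are read 5′ to 3′ on the strand of the gene, with positions counted from the RefSeq start and -1 as the base before it. For Ctsa, Ctsd, Lgmn, Mcoln1, Gaa and Gla the RefSeq start lies inside the longer gene span of the expression table. Within the gene as counted are the stretches of Ctsa, Ctsd, Lgmn and Mcoln1, while those of Lamp1, Gaa and Gla lie before it. The stretches of Ctsa, Ctsd, Mcoln1 and Gla overlap an exon in GENCODE M21. Exons of any gene were taken for this, and the Gla stretch lies outside the span of Gla.

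Ctsa, chr2:164833749-164833772, plus strand, -24 to -1: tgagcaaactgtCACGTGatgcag
Ctsd, chr7:142387908-142387937, minus strand, -110 to -81: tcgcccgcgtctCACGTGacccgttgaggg
Lgmn, chr12:102439121-102439156, minus strand, -64 to -29: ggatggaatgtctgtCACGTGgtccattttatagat
Lamp1, chr8:13159085-13159160, plus strand, -76 to -1: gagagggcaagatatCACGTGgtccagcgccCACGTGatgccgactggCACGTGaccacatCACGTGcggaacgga
Mcoln1, chr8:3500462-3500491, plus strand, -57 to -28: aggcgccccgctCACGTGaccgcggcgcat
Gaa, chr11:119267808-119267843, plus strand, -155 to -120: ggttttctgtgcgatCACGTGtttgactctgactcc
Gla, chrX:134601182-134601211, minus strand, -206 to -177: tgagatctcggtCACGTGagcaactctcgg

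The Lamp1 stretch holds 4 copies within 76 bases. Ctsa, Ctsd, Gla and Mcoln1 each hold 1 further copy in the promoter that is not shown. Of the 11 genes with the hexamer, 1 was higher in SLE1.2.3 cells (Ctsa), 3 were lower (Lgmn, Gaa and Gla) and 7 did not pass the test (Atp6v0d1, Atp6v1a, Ctsd, Ctsl, Glb1, Lamp1 and Mcoln1). Among all genes tested, with or without the hexamer, 9.65% were higher and 5.58% lower.

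The libraries held between 29700000 and 83500000 reads assigned to genes (rounded), as recovered from the steps of the values. Marker genes of γδ and cytotoxic lymphocytes rose in SLE1.2.3 mice, with the highest sums in mice 2 and 3. The 7 γδ T cell markers summed to between 2.71 and 3.06 FPKM in the controls and to 53.7, 242 and 538 FPKM in SLE1.2.3 mice 1, 2 and 3, and 6 of the 7 passed the test. The 10 NK and cytotoxic markers summed to between 37.8 and 55.5 FPKM in the controls and to 291, 1692 and 2467 FPKM in the 3 SLE1.2.3 mice. All 7 that were tested passed, while the defining NK marker Ncr1 was at most 0.032 FPKM in any library. The CD8 markers Cd8a and Cd8b1 summed to between 4.65 and 5.60 FPKM in the controls and to 7.69, 49.9 and 110 FPKM in the 3 SLE1.2.3 mice, and neither passed. Cd4 was at 246, 264 and 253 FPKM in the controls and at 257, 144 and 71.6 FPKM in SLE1.2.3 mice 1, 2 and 3. The groups overlapped, and Cd4 did not pass (limma adjusted p = 0.199). Of the 6 CD4 T cell markers, which include Cd4, 0 passed. These 6 summed to between 1353 and 1467 FPKM in the controls and to 1511, 1129 and 841 FPKM in SLE1.2.3 mice 1, 2 and 3. Their log2 difference was negative for 5 and positive for 1, Cd3d. Cd3d was at 177 to 207 FPKM in the controls and 173 to 215 FPKM in SLE1.2.3 cells. In bulk RNA a change in the share of a cell type and a change in RNA per cell cannot be told apart, and this holds for every gene below. The part of these markers in the results was tested for none of the 37 genes.

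The lysosomal genes showed a few moderate differences in both directions. Higher levels in SLE1.2.3 cells were found for Ctsa, a carboxypeptidase that also stabilises other lysosomal enzymes, and lower levels for the protease gene Lgmn, the membrane protein genes Cd68, Npc1 and Scarb2 and the glycosidase genes Gaa and Gla. FPKM is a read number scaled by gene length and library size. Genes that averaged 1 FPKM or more were tested on the log2(FPKM + 1) scale with limma, and 34 of the 37 had that mean. Of these 34, 1 was higher and 6 were lower in SLE1.2.3 cells at an adjusted p of 0.05 (Benjamini-Hochberg over all genes tested), and 27 did not pass. The same test called 15.2% of all 11378 genes tested, 9.65% as higher and 5.58% as lower. The median difference was -0.06 over the 34 genes and 0.01 over all genes tested. The groups did not overlap for 18 of the 34, with SLE1.2.3 above for 8 and below for 10. Among all genes tested the groups did not overlap for 41.5%, with SLE1.2.3 above for 23.9% and below for 17.7%.

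Few of these calls were stable when a mouse was left out. With control mouse 1, control mouse 2 or SLE1.2.3 mouse 2 left out, limma called 0 of the 34 genes, and 9, 13 and 9 of them had an unadjusted p under 0.05. The same fits called 327, 261 and 240 of all 11378 genes tested, against 1733 on the full set. Cd68 and Gla still passed when control mouse 3 was dropped, and Cd68, Npc1 and Gla when SLE1.2.3 mouse 3 was. Over all genes, 288 and 1290 were called in these fits. Dropping SLE1.2.3 mouse 1 let more genes pass: 18 of the 34, with 7 higher and 11 lower, and all 7 genes called on the full set were among them. Calls over all genes also rose without that mouse, to 3701. The direction of the 7 genes called on the full set was kept with each mouse left out. Scaling every library to the same FPKM sum moved the median of all genes to 0.112 and gave a split of 2 higher (Ctsd and Ctsw) and 2 lower (Cd68 and Gla). Under quantile normalization and under median ratio scaling it was 1 higher and 8 lower, with Lamp1 and Man2b1 added.

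**Figure D1:**
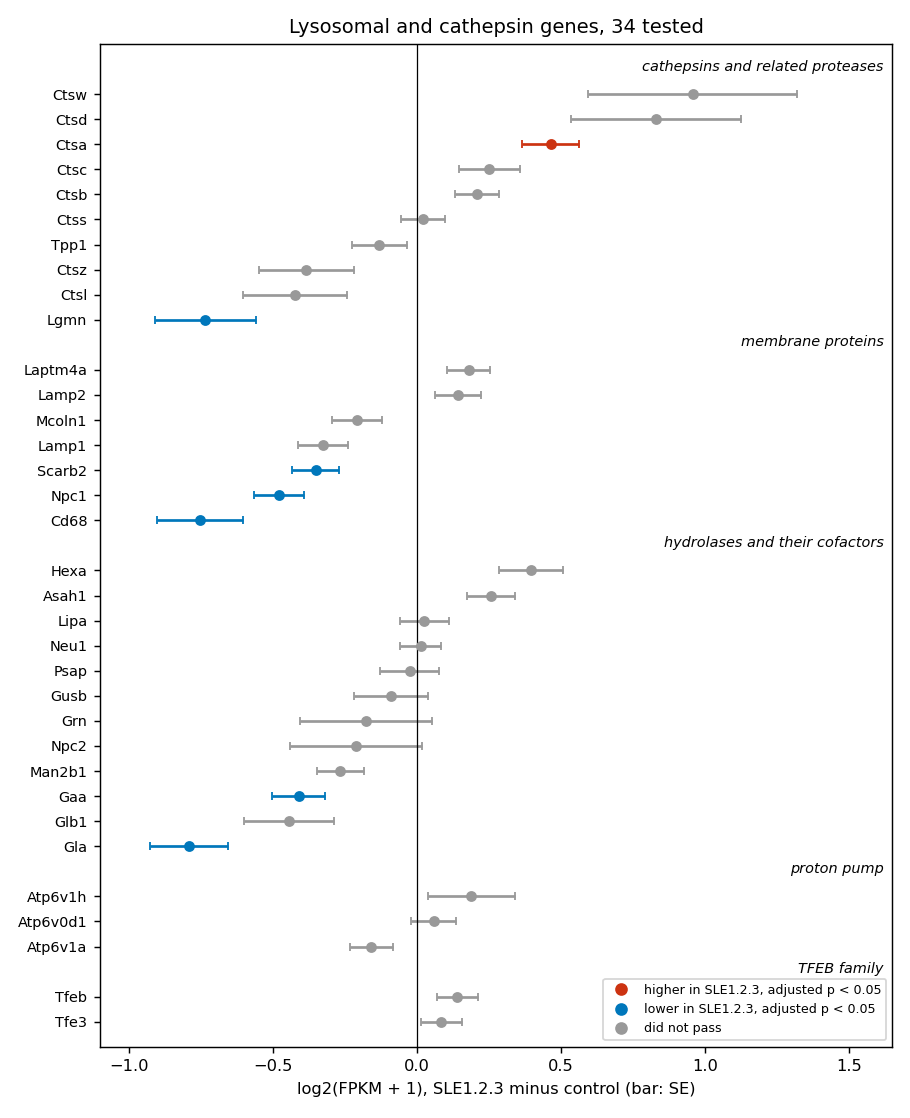
Difference between SLE1.2.3 and control cells on the log2(FPKM + 1) scale (x axis; bars are standard errors, n = 3 libraries per group) for the 34 tested genes, grouped by role. Ctsa is the gene called higher, and Lgmn, Cd68, Npc1, Scarb2, Gaa and Gla are the 6 called lower; Ctsw and Ctsd have the largest positive differences and the widest bars.

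Among the 11 cathepsins and related proteases, 10 were tested, of which Ctsa rose, Lgmn fell and 8 did not pass. That is 10.0% in each direction, against 9.65% higher and 5.58% lower over all genes tested. In control cells the levels per length were highest for Ctsz (79.0 ± 11.5 FPKM) and Ctss (67.4 ± 3.21 FPKM; SD, n = 3), followed by Ctsb at 45.8 ± 3.13 and Ctsd at 38.1 ± 3.70 FPKM. The ranges of Ctsz and Ctss overlapped in the controls, from 67.8 to 90.7 and from 65.3 to 71.1 FPKM. In SLE1.2.3 cells the mean was highest for Ctsd, at 72.4 ± 28.2 FPKM, with Ctss at 68.5 ± 4.95 and Ctsz at 60.6 ± 12.2 FPKM.

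Ctsa (chr2:164832873-164841032, mm10) was at 25.2, 27.0 and 25.6 FPKM in control mice 1, 2 and 3 and at 31.1, 39.3 and 38.4 FPKM in SLE1.2.3 mice 1, 2 and 3. The groups did not overlap, and SLE1.2.3 mouse 1 was the lowest of its group. The log2 difference was 0.46 ± 0.10 (SE; limma adjusted p = 0.0318), a ratio of means of 1.40. The adjusted p lay between 9.7e-05 and 0.15 over the 17 alternatives, and the gene passed in 8 of them. Of the exon bases of Ctsa, 17.4% lie opposite exons of Pltp and Neurl2 on the other strand, and the strand setting of the counting is not given. Pltp was at 0.328 to 0.488 FPKM in the controls and 1.02 to 2.35 FPKM in SLE1.2.3 cells, and Neurl2 at 0.464 to 1.13 FPKM over all 6 libraries.

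Lgmn encodes legumain, an asparaginyl endopeptidase that cleaves some cathepsins into their mature forms. The gene (chr12:102394084-102439813, mm10) was at 5.995, 5.89 and 4.14 FPKM in the controls and at 3.63, 2.51 and 2.31 FPKM in SLE1.2.3 mice 1, 2 and 3. All SLE1.2.3 values lay below the controls, with control 3 and SLE1.2.3 mouse 1 nearest to each other. This gave a log2 difference of -0.73 ± 0.18 (SE; limma adjusted p = 0.0408), and over 16 alternatives the adjusted p lay between 0.00034 and 0.28.

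Of the 34 tested genes, Ctsw and Ctsd had the largest standard errors of the log2 difference. Ctsw encodes cathepsin W, a cysteine protease known from cytotoxic lymphocytes. Its level was 19.1, 19.0 and 20.1 FPKM in the controls and 21.9, 38.9 and 66.7 FPKM in SLE1.2.3 mice 1, 2 and 3. All SLE1.2.3 values lay above the controls, but mouse 1 exceeded the highest control only slightly. The log2 difference of 0.96 ± 0.36 (SE) did not pass (limma adjusted p = 0.118). In the same SLE1.2.3 libraries 1, 2 and 3, Cd8a was at 1.34, 21.4 and 56.4 FPKM, Trdc at 4.96, 18.9 and 45.2 FPKM, and the perforin gene Prf1 at 5.996, 54.5 and 83.6 FPKM. Their part in the level of Ctsw was not tested.

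Ctsd encodes cathepsin D, the main aspartic protease of lysosomes. It was at 41.3, 39.1 and 34.1 FPKM in the controls and at 42.2, 76.9 and 98.2 FPKM in SLE1.2.3 mice 1, 2 and 3. SLE1.2.3 mouse 1 again lay just above the controls, while mice 2 and 3 lay well above them. At 0.83 ± 0.29 (SE) the log2 difference did not pass (limma adjusted p = 0.102). Both differences depended on which SLE1.2.3 mice were kept. Without mouse 1 they passed, at 1.17 for Ctsd and 1.35 for Ctsw. Without mouse 3 they were 0.572 and 0.569, and with mouse 1 as the only SLE1.2.3 library 0.148 and 0.168, and neither passed in these fits. Of the exon bases of Ctsd, 34.4% are shared in GENCODE M21 with a predicted gene on the same strand. How reads over those bases were counted is not given in these sources.

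**Figure D2:**
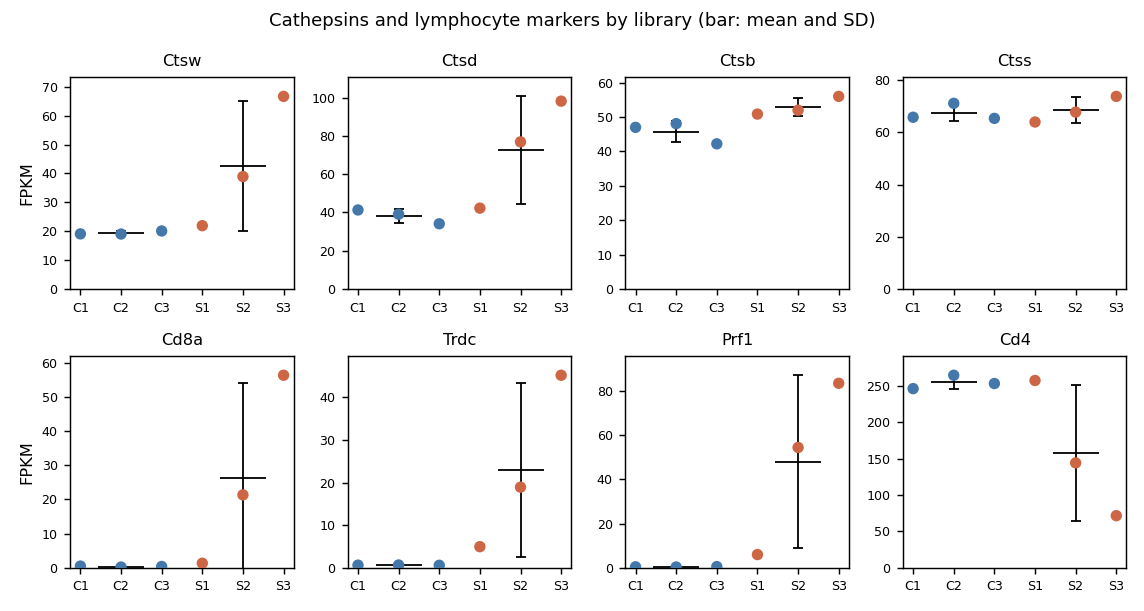
Level in FPKM (y axis, from 0) of 4 cathepsin genes (upper row) and of the lymphocyte markers Cd8a, Trdc, Prf1 and Cd4 (lower row) in control libraries C1 to C3 and SLE1.2.3 libraries S1 to S3; bars give the mean and SD of each group, and the lower end of the Cd8a bar is off the axis. Ctsw is at 21.9, 38.9 and 66.7 FPKM in S1, S2 and S3, where Cd8a is at 1.34, 21.4 and 56.4 FPKM, while Ctss ranges from 63.9 to 73.8 FPKM over all 6 libraries.

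The other cysteine proteases had smaller differences. Ctsb, cathepsin B, was at 47.0, 48.1 and 42.2 FPKM in the controls and at 50.9, 52.0 and 56.0 FPKM in the 3 SLE1.2.3 mice, without overlap (log2 difference 0.21 ± 0.08 SE; limma adjusted p = 0.109). Of its exon bases 12.8% lie opposite Fdft1, a gene of sterol synthesis at 15.03 to 19.3 FPKM in the controls and 10.5 to 15.9 FPKM in SLE1.2.3 cells. Ctsl was the lowest of the tested cathepsins, at 3.42, 3.72 and 2.51 FPKM in the controls and 2.92, 1.92 and 1.66 FPKM in SLE1.2.3 mice 1, 2 and 3. Its groups overlapped through control 3 and SLE1.2.3 mouse 1, and the difference of -0.42 ± 0.18 (SE) did not pass (limma adjusted p = 0.153). For Ctsl, 32.9% of the exon bases are shared with a pseudogene on the same strand and an antisense gene in GENCODE M21. Ctss, which trims the invariant chain of MHC class II, had a log2 difference of 0.02 with a 95% interval from -0.17 to 0.21.

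Ctsc, whose product activates granzymes, was at 10.8 to 11.4 FPKM in the controls and at 11.3, 14.1 and 14.9 FPKM in SLE1.2.3 mice 1, 2 and 3, and did not pass. Ctsz had overlapping groups, from 67.8 to 90.7 FPKM in the controls and from 53.3 to 74.7 FPKM in SLE1.2.3 cells (limma adjusted p = 0.156). Tpp1, a tripeptidyl peptidase gene, had a difference of -0.13 with a 95% interval from -0.36 to 0.10. Ctsh was close to undetected and was not tested, at 0.075 to 0.097 FPKM in the controls and at 0.272, 0.032 and 0.041 FPKM in SLE1.2.3 mice 1, 2 and 3. These levels rest on 10 to 24 reads in the control libraries and on 102, 9 and 14 reads in the SLE1.2.3 libraries, so that mouse 1 alone stood apart.

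Of the 8 membrane protein genes 7 were tested, and 3 fell, 0 rose and 4 did not pass. The 3 that fell were 42.9% of only 7 genes, against 5.58% of all genes tested, of which 9.65% rose. Npc1 encodes the membrane protein that hands cholesterol out of the lysosome. It was at 7.34, 7.10 and 6.36 FPKM in the controls and at 5.20, 4.51 and 4.38 FPKM in SLE1.2.3 mice 1, 2 and 3, so every SLE1.2.3 library lay below the lowest control. Of its exon bases 5.31% lie opposite other genes, mainly Rmc1, which was at 6.83 to 7.54 FPKM and 8.71 to 9.09 FPKM in the same groups. Npc1 had a log2 difference of -0.48 ± 0.09 (SE; limma adjusted p = 0.0209; between 0.00013 and 0.17 over 17 alternatives). Its soluble partner Npc2 had no such separation. Npc2 was at 93.2, 102 and 87.3 FPKM in the controls and at 116, 75.8 and 60.2 FPKM in SLE1.2.3 mice 1, 2 and 3, with mouse 1 above and mice 2 and 3 below every control.

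Scarb2 encodes LIMP-2, the receptor that carries glucocerebrosidase to the lysosome. The gene (chr5:92441314-92506833, mm10) was at 16.5, 16.6 and 14.5 FPKM in the controls and at 13.2, 11.4 and 12.02 FPKM in the 3 SLE1.2.3 mice, without overlap (log2 difference -0.35 ± 0.08 SE; limma adjusted p = 0.0389; between 0.00033 and 0.43 over 17 alternatives).

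Cd68 encodes macrosialin, a glycosylated relative of the LAMP proteins that is abundant in macrophages. The gene (chr11:69664213-69666153, mm10) was at 3.67, 4.08 and 2.702 FPKM in the controls and at 1.95, 1.68 and 1.32 FPKM in the 3 SLE1.2.3 mice, 2.11 times lower in the means. The log2 difference was -0.75 ± 0.15 (SE; limma adjusted p = 0.026), and the gene passed in 11 of 16 alternatives. The 11 myeloid markers, of which 2 were tested and 0 passed (limma, 0 with an unadjusted p under 0.05), summed to between 6.40 and 8.87 FPKM in the controls and to 13.4, 4.87 and 4.52 FPKM in SLE1.2.3 mice 1, 2 and 3. Among the 11, the macrophage markers Adgre1 and Fcgr1 were at most 0.174 and 0.031 FPKM. Cd14, Tyrobp and Cybb reached 2.01, 1.19 and 0.652 FPKM, all in SLE1.2.3 mouse 1. Mpeg1 was at 0.238 to 0.372 FPKM in the controls and 0.542 to 0.795 FPKM in SLE1.2.3 cells. Lyz2 made up 7.73 FPKM of the sum in library 1. The part of myeloid cells in the level of Cd68 was not tested.

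Lamp1 and Lamp2 encode the most abundant glycoproteins of the lysosomal membrane. Lamp1 was at 59.9, 56.8 and 55.4 FPKM in the controls and at 50.7, 44.7 and 41.7 FPKM in SLE1.2.3 mice 1, 2 and 3. The groups did not overlap, and the difference of -0.33 ± 0.09 (SE) just missed the threshold (limma adjusted p = 0.0525). Lamp1 passed in 4 of 17 alternatives, with adjusted p between 0.00039 and 0.52. Lamp2 was at 10.5, 11.0 and 10.2 FPKM in the controls and at 10.6, 12.4 and 12.5 FPKM in SLE1.2.3 mice 1, 2 and 3. It overlapped between the groups, with a difference of 0.14 ± 0.08 (SE; limma adjusted p = 0.257).

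Among the other membrane protein genes, the calcium channel gene Mcoln1 was at 5.80 to 6.70 FPKM in the controls and at 4.70 to 5.66 FPKM in SLE1.2.3 cells (limma adjusted p = 0.147). Laptm4a was at 31.2 to 36.8 FPKM and 37.8 to 39.8 FPKM (limma adjusted p = 0.148). Neither overlapped between the groups, with Mcoln1 below and Laptm4a above the controls. Cd63, a tetraspanin gene of late endosomes and granules, had a mean under 1 FPKM and was not tested, at 0.740 to 1.36 FPKM in the controls and 0.462 to 1.04 FPKM in SLE1.2.3 cells.

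All 12 hydrolase and cofactor genes were tested, and 2 fell, 0 rose and 10 did not pass. The 2 that fell were 16.7% of the 12, against 5.58% of all genes tested, of which 9.65% rose. Gla encodes α-galactosidase A, which removes terminal galactose from glycolipids. The gene (chrX:134588149-134601125, mm10) was at 11.2, 11.3 and 8.92 FPKM in the controls and at 6.78, 5.08 and 5.08 FPKM in SLE1.2.3 mice 1, 2 and 3. The lowest control stood above the highest SLE1.2.3 library, and mice 2 and 3 were nearly equal. The log2 difference was -0.79 ± 0.13 (SE; limma adjusted p = 0.0185), with control cells at 1.86 times the SLE1.2.3 mean. Of the 37 genes it passed in the most alternatives, 12 of 17, with adjusted p between 8.7e-05 and 0.12.

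Gaa encodes the acid α-glucosidase that degrades glycogen in the lysosome. The gene (chr11:119267887-119285454, mm10) was at 8.22, 7.999 and 7.11 FPKM in the controls and at 5.32, 6.29 and 5.21 FPKM in SLE1.2.3 mice 1, 2 and 3, without overlap. Here SLE1.2.3 mouse 2, and not mouse 1, lay nearest to the controls. Its log2 difference was -0.41 ± 0.09 (SE; limma adjusted p = 0.0343; between 0.0048 and 0.29 over 17 alternatives).

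**Figure D3:**
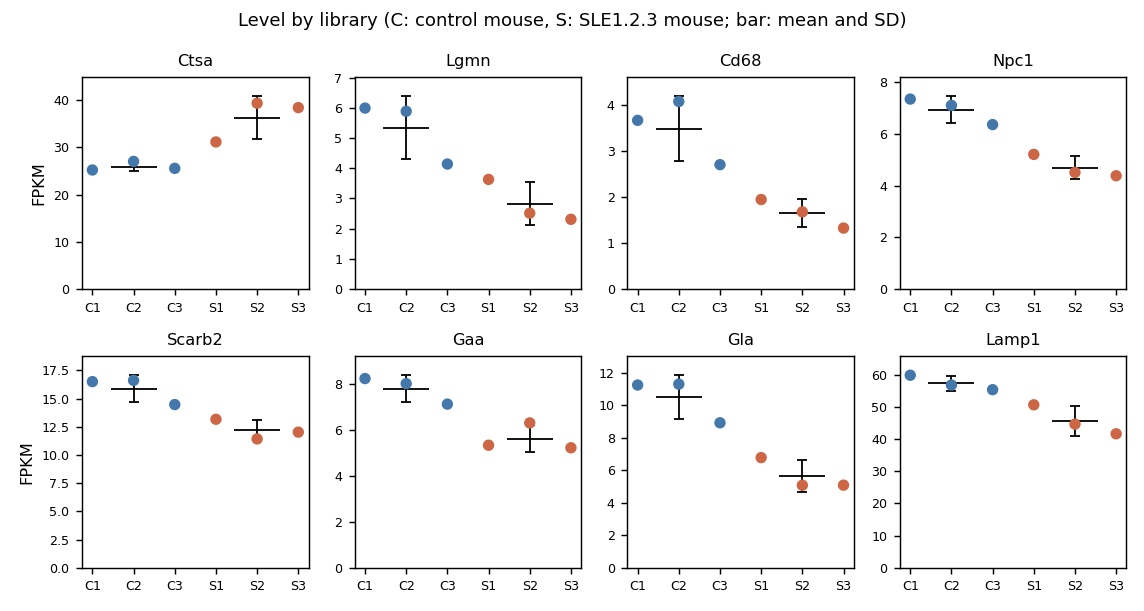
Level in FPKM (y axis, from 0) of the 7 genes that passed the test and of Lamp1, in control libraries C1 to C3 and SLE1.2.3 libraries S1 to S3; bars give the mean and SD of each group. The groups do not overlap in any panel; for Lgmn, control 3 at 4.14 FPKM and S1 at 3.63 FPKM are the nearest values.

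Differences that did not pass ran in both directions among the other glycosidase genes. Glb1, the β-galactosidase gene, was at 24.3, 22.2 and 20.002 FPKM in the controls and at 19.8, 15.8 and 12.9 FPKM in SLE1.2.3 mice 1, 2 and 3 (limma adjusted p = 0.0992). Man2b1, an α-mannosidase gene, was at 28.7 to 32.8 FPKM and 23.6 to 27.1 FPKM (limma adjusted p = 0.0713). Both lay below the controls in all 3 SLE1.2.3 libraries. Hexa, which encodes the α subunit of β-hexosaminidase, was at 7.97, 8.43 and 7.78 FPKM in the controls and at 9.16, 11.4 and 12.5 FPKM in SLE1.2.3 cells, above every control (limma adjusted p = 0.0601). The ceramidase gene Asah1 was also above every control, at 16.9 to 18.9 FPKM against 13.3 to 15.8 FPKM (limma adjusted p = 0.0832). Of the partners that the Ctsa product stabilises, Neu1 had a difference of 0.01 with a 95% interval from -0.16 to 0.19, and Glb1 one of -0.45 with a 95% interval from -0.82 to -0.07 before any adjustment for multiple genes.

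Psap, the precursor gene of the saposins, had the highest level per length of the 37 genes, at 171 ± 11.0 FPKM in control and 169 ± 18.9 FPKM in SLE1.2.3 cells (n = 3 each, SD). Grn, which encodes progranulin, was at 25.2 to 32.8 FPKM in the controls and at 36.6, 25.2 and 19.4 FPKM in SLE1.2.3 mice 1, 2 and 3. As for Npc2, mouse 1 was the highest of all 6 libraries and mouse 3 the lowest. The acid lipase gene Lipa and the β-glucuronidase gene Gusb had differences of 0.03 and -0.09, with 95% intervals from -0.18 to 0.23 and from -0.40 to 0.22.

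The 3 proton pump genes all had overlapping groups. Atp6v0d1, a subunit gene of the membrane sector, was at 34.01 to 38.1 FPKM in the controls and 34.3 to 39.5 FPKM in SLE1.2.3 cells. Atp6v1a, which encodes the catalytic subunit, was at 20.3 to 22.8 FPKM and 17.9 to 20.4 FPKM (limma adjusted p = 0.185). Atp6v1h was at 3.69 to 3.88 FPKM in the controls and at 3.33, 4.70 and 5.53 FPKM in SLE1.2.3 mice 1, 2 and 3 (limma adjusted p = 0.408), so that mouse 1 lay below and mice 2 and 3 above the controls.

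The TFEB family genes did not pass. Tfeb was at 2.94, 2.81 and 2.80 FPKM in the controls and at 3.19, 3.08 and 3.46 FPKM in the 3 SLE1.2.3 mice. The groups did not overlap, and the difference was 0.14 ± 0.07 (SE; limma adjusted p = 0.215). Tfe3, the family member with the highest level per length here, was at 7.32, 7.20 and 7.10 FPKM in the controls and at 8.30, 7.79 and 7.07 FPKM in SLE1.2.3 mice 1, 2 and 3. It had a difference of 0.08 with a 95% interval from -0.09 to 0.26. Mitf was below the mean of 1 FPKM and was not tested, at 0.285, 0.219 and 0.195 FPKM in the controls and at 0.385, 0.290 and 0.161 FPKM in SLE1.2.3 cells, from 36 to 199 reads per library. The levels are those of RNA, while these factors are known to be controlled mainly by phosphorylation and movement to the nucleus.

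Summed over all 37 genes, the level per length was 942 ± 55.7 FPKM in control and 955 ± 17.4 FPKM in SLE1.2.3 cells (n = 3 each, SD). The sums by role were not tested, and a few abundant genes carry most of each sum. The 11 protease genes summed to 286 to 324 FPKM in the controls and to 317, 360 and 416 FPKM in SLE1.2.3 mice 1, 2 and 3. In those mice Ctsd was at 42.2, 76.9 and 98.2 FPKM and Ctsw at 21.9, 38.9 and 66.7 FPKM. The 12 hydrolase and cofactor genes summed to 395 to 444 FPKM in the controls and to 458, 382 and 350 FPKM in SLE1.2.3 mice 1, 2 and 3. There Npc2 was at 116, 75.8 and 60.2 FPKM and Psap at 190, 163 and 153 FPKM. The sum of the 8 membrane protein genes was 127 to 141 FPKM in the controls and 116 to 126 FPKM in SLE1.2.3 cells, without overlap. Lamp1 made up 55.4 to 59.9 FPKM of it in the controls and 41.7 to 50.7 FPKM in SLE1.2.3 cells. Ctsd, Ctsw, Npc2, Psap and Lamp1 did not pass the test. Ctsz, Ctss, Ctsd and Ctsb had the 4 highest means among the proteases in both groups, and Psap and Npc2 the highest among the hydrolases and cofactors.

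**Figure D4:**
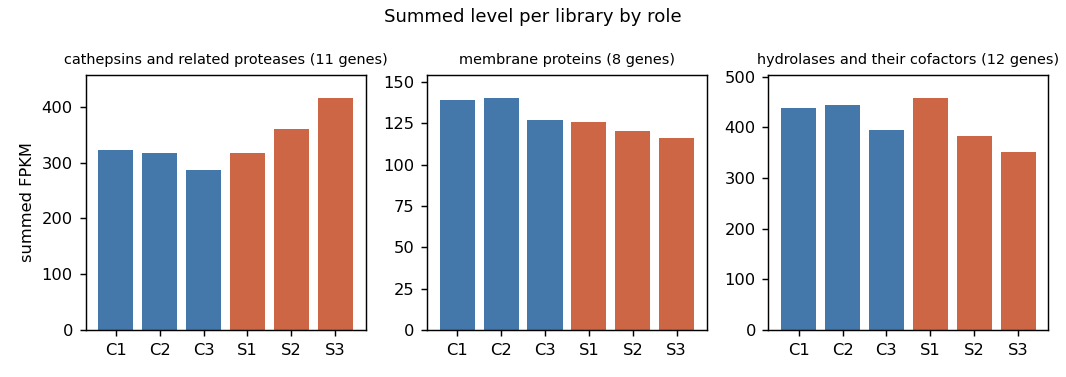
Summed FPKM (y axis, from 0) of the 11 protease, 8 membrane protein and 12 hydrolase and cofactor genes in control libraries C1 to C3 and SLE1.2.3 libraries S1 to S3. The protease sum is highest in S3 at 416 FPKM and the hydrolase sum lowest in S3 at 350 FPKM, while S1 lies within the control range for proteases at 317 FPKM and above it for hydrolases at 458 FPKM.

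The other genes of the pathway were read from 7 lists with 149 entries, of which 139 were tested. Of these, 14 rose (10.1%) and 3 fell (2.16%), against 9.65% and 5.58% of all genes tested, so the share that rose was near the background. The median difference was 0.12, against 0.01 over all genes tested. Of 21 other membrane protein genes tested, 5 rose (23.8%) and 0 fell, with a median of 0.29 against 0.01 over all genes tested. Slc15a3, a transporter of histidine and peptides out of the lysosome, was at 6.62, 6.55 and 5.85 FPKM in the controls and at 16.4, 24.9 and 27.2 FPKM in SLE1.2.3 mice 1, 2 and 3. Its log2 difference of 1.67 ± 0.18 (SE; limma adjusted p = 0.00685) passed in all 17 alternatives. Laptm4b and Tmem192 rose by 0.81 and 0.79 on the log2 scale, and Litaf by 0.39. Laptm4b was at 0.902 to 1.40 FPKM in the controls and at 2.35, 3.21 and 3.07 FPKM in SLE1.2.3 mice 1, 2 and 3.

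Of 37 other hydrolase and protease genes tested 4 rose (10.8%) and 0 fell, against 9.65% and 5.58% of all genes tested. Those that rose were Pla2g15, a lysosomal phospholipase gene, Dpp7, Hgsnat and the β-mannosidase gene Manba, with log2 differences of 0.41, 0.33, 0.33 and 0.28. Of 15 other proton pump subunit genes 1 rose (6.67%), Atp6v1g2, from 3.18 ± 0.15 to 4.42 ± 0.13 FPKM (n = 3 each, SD). Of 21 sorting genes 1 rose (4.76%), Rab27a, which encodes a small GTPase of secretory lysosomes and cytotoxic granules. It was at 28.3, 33.1 and 32.1 FPKM in the controls and at 40.0, 56.2 and 69.9 FPKM in SLE1.2.3 mice 1, 2 and 3. In those libraries the NK and cytotoxic markers summed to 291, 1692 and 2467 FPKM, and their part in the level of Rab27a was not tested.

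The list of nutrient sensing at the lysosome had 3 called genes among 17 tested, with 1 higher and 2 lower. This share of 17.6% was near the 15.2% of all genes tested. Lamtor4, which encodes a subunit of the Ragulator scaffold, rose from 17.9 ± 0.72 to 25.6 ± 1.15 FPKM (n = 3 each, SD; limma adjusted p = 0.0094). Rragd, on chromosome 4, encodes a Rag GTPase that helps to recruit mTORC1 and the TFEB family to the lysosome. It was at 3.97, 4.15 and 4.03 FPKM in the controls and at 1.80, 1.19 and 0.800 FPKM in SLE1.2.3 mice 1, 2 and 3, a log2 difference of -1.18 ± 0.16 (SE; limma adjusted p = 0.0106). Fnip1, a partner gene of folliculin, which acts on the Rag GTPases, fell from 12.2 ± 0.96 to 7.25 ± 1.11 FPKM (limma adjusted p = 0.0171). Both passed in 12 alternatives, out of 16 for Rragd and 17 for Fnip1.

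Of 21 autophagy genes 2 rose, both of them autophagy receptors. This share of 9.52% was near the 9.65% of all genes tested. Optn rose from 5.56 ± 0.38 to 12.3 ± 3.28 FPKM (n = 3 each, SD; limma adjusted p = 0.0205). Sqstm1, which encodes p62, was at 51.6 to 57.3 FPKM in the controls and 62.2 to 70.7 FPKM in SLE1.2.3 cells, close to the threshold (limma adjusted p = 0.0495), and passed in 4 of 17 alternatives. Of 7 protease inhibitor genes 1 fell (14.3%, against 5.58% of all genes tested), Serpinb6b, from 4.93 ± 0.58 to 1.48 ± 0.63 FPKM (limma adjusted p = 0.0136). Cst7, the inhibitor gene of cathepsin C and other cathepsins in cytotoxic cells, was at 73.9 to 88.6 FPKM in the controls and at 94.6, 106 and 113 FPKM in SLE1.2.3 mice 1, 2 and 3, and did not pass (limma adjusted p = 0.0509). Cst7 is named here after its values were seen.

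**Figure D5:**
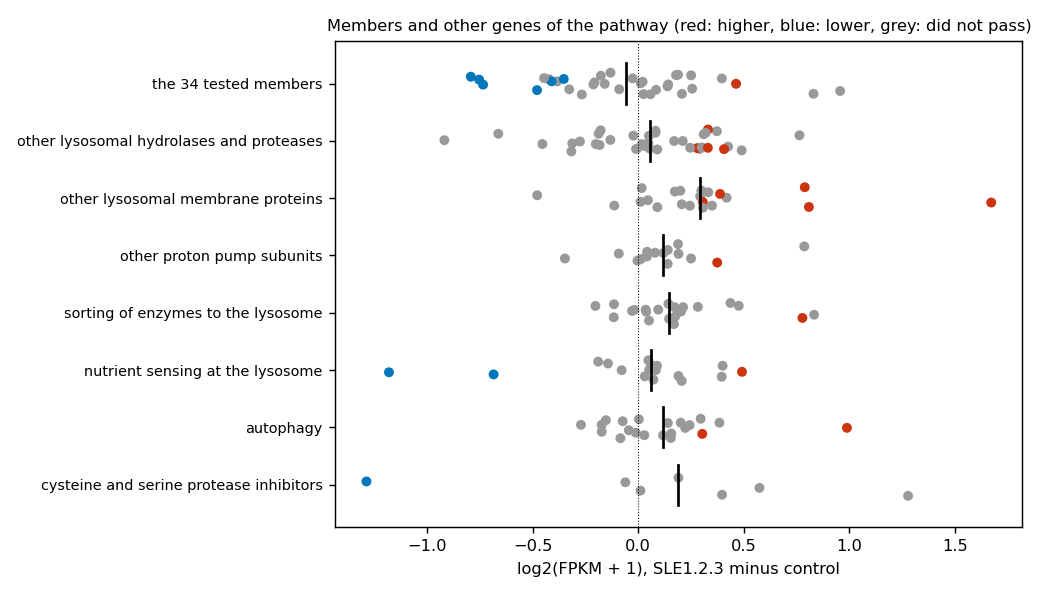
Difference between SLE1.2.3 and control cells on the log2(FPKM + 1) scale (x axis) for the 34 tested members and for the tested genes of the 7 other lists (rows); each point is a gene, vertical lines are medians, and points are spread vertically at random. The median is -0.06 for the members and 0.29 for the other membrane proteins, and the most negative called values are those of Serpinb6b and Rragd.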

How the data were processed

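The authors deposited FPKM values for 33300 features, with lengths and mm10 coordinates. STAR 2.7.3a, featureCounts 2.0.0, cutadapt 2.10, FastQC 0.11.9 and DESeq2 1.24.0 are listed in the submitters' processing notes, with no role. Neither a strand setting nor an annotation release is given in these sources. 32630 feature IDs matched GENCODE M21 with the same coordinates. Low values were whole multiples of 1 read (100% of those under 30 reads, within 0.15 of a read), which gave the depth. By a preset limit, a level of up to 3 reads was allowed for at a value of 0, or 0.0359 to 0.101 FPKM for a gene of 1 kb. The limit is not a count of reads hidden by rounding.

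Values were fitted as log2(FPKM + 1), which understates changes of low genes, with limma 3.58.1 in R 4.3.3 (mean-variance trend, genotype as the only term) over 11378 features with a mean of at least 1 FPKM. Each p-value reflects only how these 6 mice varied. Same-numbered mice share only a number. Alternatives covered the pseudocount, the filter, the scaling, voom on recovered reads, array weights, the trend, a block by mouse number and each mouse left out.

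The 37 genes, the lists and the alternatives were chosen with earlier results of these data known. Library values are given for called genes, for Ctsb, Ctsd, Ctsl, Lamp1, Lamp2, Tfeb, Tfe3 and Mitf, and for differences of at least 1 (log2), of which there were none among the 37. Up to 4 called genes per list are named. Ctsw and other uncalled genes with values per mouse were added after their values were seen.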

Additional observations from a re-analysis of the deposited data

How the results depend on the processing

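The 7 called genes kept their direction in every alternative in which they were tested. The other settings moved counts far more than directions. Of the 34 tested genes limma called 1 higher and 6 lower. With no filter on low values, 0 and 0 were called (15 with an unadjusted p under 0.05), and 0 and 0 when SLE1.2.3 mice 2 and 3 were both dropped (9 unadjusted), a fit chosen after seeing the data in which the lone SLE1.2.3 library is assumed to vary like the controls. Array weights gave 13 and 15, and a common FPKM sum 2 and 2. Leaving out a mouse gave 0 to 7 higher and 0 to 11 lower. Over all genes, the 1733 calls became 798 with no filter, 1129 with a mean of at least 5 FPKM, 6952 with array weights, 665 when those mice were dropped, and 240 to 3701 with a mouse left out. The split of 1098 higher and 635 lower was 990 and 351 with a common FPKM sum and 921 and 881 after quantile normalization. The 17 other lysosomal genes called became 6, 8, 90 and 4 under those first 4 settings, and 1 to 47 with a mouse left out. With the mouse number as a replicate block, 0 members were higher and 4 lower, and 940 genes and 10 other lysosomal genes were called. The block rests on numbers alone: deviations of same-numbered mice correlated at -0.00401, 0.1 and 0.0914.

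Signs turned in 10 genes, none of them called on the full set, and the cause was not tested. Leaving out a mouse gave -0.033 to 0.0685 for Ctss, -0.0258 to 0.0591 for Neu1, -0.0384 to 0.0663 for Lipa, -0.209 to 0.0238 for Gusb, -0.114 to 0.0399 for Psap and -0.411 to 0.0313 for Grn. Median ratio scaling gave -0.00454 for Ctss and -0.0114 for Neu1, and quantile normalization -0.00114 for Ctss, -0.0325 for Neu1 and -0.0277 for Lipa. A common FPKM sum gave 0.0206 for Gusb and 0.0909 for Psap. Dropping SLE1.2.3 mice 2 and 3 together gave -0.0739 for Ctss, 0.0238 for Tpp1, -0.0041 for Lamp2, -0.0524 for Lipa, 0.304 for Npc2, 0.149 for Psap, 0.292 for Grn and -0.141 for Atp6v1h.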
